A study of Mus musculus with 3 samples.

Results

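The endothelial cells of mouse pancreatic islets were described in droplet-based single-cell RNA sequencing of islets from 3 mice. Members were chosen by detection: a cell was counted as endothelial when it carried a transcript of at least 4 of 7 marker genes (Plvap, Flt1, Emcn, Esm1, Kdr, Egfl7 and Pecam1) and when transcripts of Ins1, Ins2, Gcg, Sst and Ppy together made up less than 20% of its unique molecular identifiers (UMIs, each standing for 1 captured transcript). Of 7490 cells with at least 500 detected genes and at most 15% mitochondrial UMIs, 402 met this rule, with 55, 88 and 259 in mice 1, 2 and 3. The mice were non-diabetic NOD-SCID females aged 10 to 11 weeks, which lack mature T and B cells. Each mouse gave 1 library of dissociated islets, and the 3 libraries form 1 group with no treatment, so comparisons lie between cell classes and vessel subtypes of the same mice.

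Islet capillaries form a dense network inside each islet, and their endothelium is known for fenestrae, small pores bridged by a diaphragm that let hormones and nutrients cross. Beta cells are known to secrete VEGF-A, which acts on the endothelial receptor KDR, while FLT1 binds the same ligand. Endothelial cells line the vessel on a basement membrane, and pericytes and smooth muscle cells, here called mural cells, wrap it from outside. Arteries, capillaries and veins share a common endothelial programme and differ in Notch, ephrin and adhesion genes.

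Promoter sequence is shown for 4 of the 7 marker genes because the rule rests on their joint detection. ETS transcription factors, known regulators of endothelial genes, bind DNA with a GGAA core. The 200 bases before the start site were searched on both strands for AGGAAG and CGGAAG, which do not overlap each other, and capitals mark matches. RefSeq windows on GRCm38.p6 held 5 of the 7 genes. The windows lie at chr5:147726012-147726211 for Flt1 (minus strand), chr3:137340878-137341077 for Emcn (plus strand), chr2:26580883-26581082 for the first of 3 Egfl7 windows (plus strand) and chr5:75978456-75978655 for Kdr (minus strand).
Flt1: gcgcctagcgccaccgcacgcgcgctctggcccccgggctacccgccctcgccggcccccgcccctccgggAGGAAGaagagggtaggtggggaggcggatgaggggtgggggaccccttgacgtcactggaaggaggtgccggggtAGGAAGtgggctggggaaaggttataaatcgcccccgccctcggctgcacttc
Emcn: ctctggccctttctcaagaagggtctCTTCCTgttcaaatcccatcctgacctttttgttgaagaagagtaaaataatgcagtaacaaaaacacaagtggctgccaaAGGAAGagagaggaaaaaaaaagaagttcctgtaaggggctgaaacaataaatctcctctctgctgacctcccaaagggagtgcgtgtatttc
Egfl7: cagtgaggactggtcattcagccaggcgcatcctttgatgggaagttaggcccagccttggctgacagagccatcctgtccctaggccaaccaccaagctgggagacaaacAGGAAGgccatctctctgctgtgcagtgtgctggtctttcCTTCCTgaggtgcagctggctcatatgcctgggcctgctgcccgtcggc
Kdr: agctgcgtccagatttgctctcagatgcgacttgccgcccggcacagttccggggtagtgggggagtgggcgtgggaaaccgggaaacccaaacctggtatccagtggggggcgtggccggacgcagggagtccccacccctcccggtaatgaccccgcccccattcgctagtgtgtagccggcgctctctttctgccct
The Flt1, Emcn and first Egfl7 windows each held 2 matches, the other Egfl7 windows held 1 and 0, and the Kdr and Esm1 windows held 0. Over 32851 promoter windows of the same length, 33.9% held at least 1 match and 8.75% held at least 2. A match is a run of letters and not a measured binding site.

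The 402 cells stood well apart from the other cells in the number of markers, a description of the rule and not a test. Among cells under the hormone limit, 1965 carried 0 markers, 258 carried 1, 28 carried 2 and 4 carried 3, whereas 9, 21, 84 and 288 carried 4, 5, 6 and 7. Just outside the hormone limit, 53 cells carried at least 4 markers with at least 20% hormone UMIs (median 39.0%), and insulin led the hormones in 42 of them. Only 6 cells with at least 4 markers lay between 15% and 20% hormone UMIs and 6 between 20% and 25%.

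**Figure D1:**
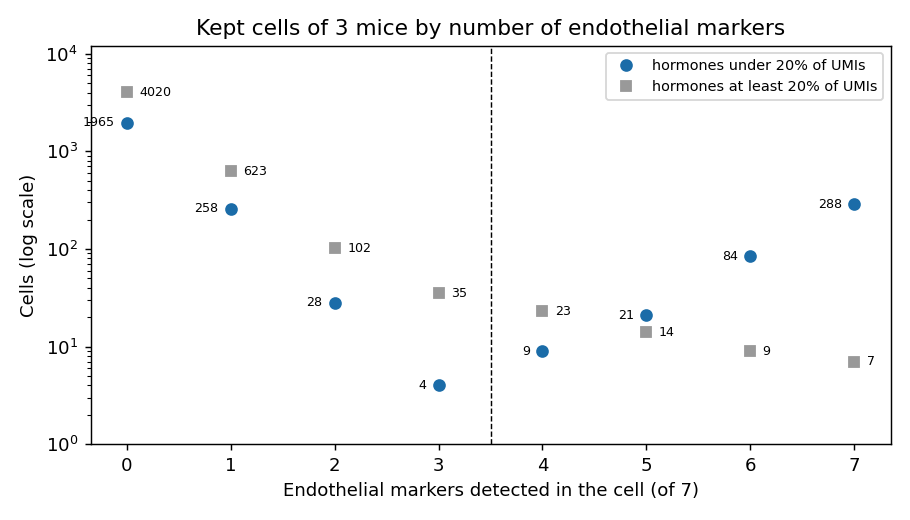
Number of kept cells (vertical axis, log scale) by number of the 7 endothelial markers detected (horizontal axis), for cells under and at or over the hormone limit, with the cell count beside each point and the dashed line at the limit of the rule. Counts under the hormone limit fall to 4 cells at 3 markers and reach 288 at 7.

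Plvap, which builds the diaphragm of fenestrae, was detected in 98.2%, 100% and 99.2% of the endothelial cells of mice 1, 2 and 3. Hormone-rich cells are those with at least 20% hormone UMIs and fewer than 4 of the 7 markers, so the 53 cells above are not among them. Of the hormone-rich cells, which should lack Plvap, 2.40%, 4.83% and 1.91% carried a Plvap UMI. The marker limit itself lowers these shares. Median depth, hormone UMIs included, was 9203, 5184 and 4301 UMIs per endothelial cell and 10194, 6720 and 17102.5 UMIs per hormone-rich cell. Hormones made up 51.3%, 58.2% and 47.4% of hormone-rich UMIs against 5.85%, 3.86% and 2.78% of endothelial UMIs. Which class was deeper outside the hormone genes was not tested. Esm1, a secreted proteoglycan and the least widely detected of the 7, was found in 78.2%, 85.2% and 75.3%. Before any scaling for composition, the level of Plvap was 4105, 4030 and 5710 CPM (the usual counts-per-total scale, with the 5 hormone genes left out of the total, called unscaled CPM below), that of Flt1 2261, 2661 and 3347 and that of Kdr 1948, 1956 and 2186. These rule genes chose the cells, and their levels are given without a test.

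Endothelial markers outside the rule varied in how widely and how exclusively they were detected. Cdh5, the adhesion molecule of endothelial junctions, was detected in 94.5%, 90.9% and 81.9% of endothelial cells and in at most 1.25% of hormone-rich cells in each mouse. Leaving cells with at least 4 rule markers out of the hormone-rich class can lower the latter share. At least 3 of 12 such markers were present in 393 of 402 cells. Cldn5, a tight junction claudin, was found in 9.09%, 6.82% and 4.25%, and the transcription factor Sox17 in 23.6%, 21.6% and 17.4%. Tek was found in 53.0% of all 402 cells. Some of these markers were shared with other classes: Esam was found in 77.4% and Eng in 44.6% of mural cells, and Ramp2 in 11.8% of hormone-rich cells against 90.3% of endothelial cells. The label endothelial was met by most of the defining markers, with Cldn5 and Sox17 rarely detected.

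The libraries of mice 1, 2 and 3 held 32389170, 48076507 and 57849496 UMIs, and the 402 cells gave 566960, 605784 and 1184853. Transcripts of hormone and acinar genes were found in every class, and their source was not tested. Hormone transcripts made up 5.85%, 3.86% and 2.78% of endothelial UMIs and 3.60%, 4.70% and 2.76% of macrophage UMIs. The 8 acinar enzyme genes made up 0.624%, 1.64% and 0.218% of endothelial UMIs, close to 0.789%, 1.59% and 0.231% in mural cells, and 358 of 402 endothelial cells carried at least 3 of them. At least 4 of 9 mural markers were found in 5 endothelial cells, at least 4 of 7 macrophage markers in 1 and at least 3 of 7 fibroblast markers in 1. At least 3 of 8 duct markers were found in 4, and Schwann markers never reached 3 in a cell. Hemoglobin transcripts were high in mouse 3, where Hbb-bs gave 1789 of its 1793 endothelial UMIs. No doublet caller was run, and 0 endothelial cells shared a barcode with another library, although 148 barcodes were shared between mice 1 and 2.

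Endothelial cells made up 4.80% of kept cells in mouse 1 (exact Clopper-Pearson 95% interval 3.64% to 6.21%), 3.25% in mouse 2 (2.62% to 3.99%) and 7.12% in mouse 3 (6.30% to 8.00%), a mean of 5.06% ± 1.94 (SD, n = 3). Mouse 3 was highest and its interval overlapped neither of the others. These intervals cover counting error only. Shares of kept cells also depend on dissociation and on the filters, and their part was not tested.

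Of 7 lymphatic markers, 5 (Lyve1, Mmrn1, Pdpn, Ccl21a and Reln) had 0 UMIs in the 402 cells. No cell carried 3 or more; at 3 counts of the total, this allows a share of up to 0.746% of cells with 3 detected, and does not limit the share of cells that express them. Flt4, the VEGF-C receptor that lymphatic and fenestrated blood endothelium can both express, was nevertheless found in 63.6%, 40.9% and 47.1%. Its partner in the lymphatic list, Prox1, was found in 18 cells. Prox1 gave 23 UMIs in the 402 endothelial cells, 11 in 168 mural cells and 10 in 191 macrophages, so it was not particular to the endothelium.

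Endothelial sums were compared with those of 2 other classes of the same mice, 168 mural cells (17, 32 and 119) and 191 macrophages (19, 50 and 122), each gated on at least 4 of its own markers under the same hormone limit. Genes of the gates and hormones were left out of all counts. The count filter could let a gene into the test through its endothelial counts alone. Such a gene, with few UMIs in the other class, could hardly come out other than higher, which raises list counts and medians. In edgeR's quasi-likelihood test with the mouse as a block, 7116 genes were tested, 2215 (31.1%) differed from mural cells, with 1220 higher in endothelial cells (17.1%) and 995 lower (14%), and 3273 (46%) differed from macrophages, with 1678 higher (23.6%) and 1595 lower (22.4%). Higher than in both were 774 genes (10.9%), and 277 were lower than in both (3.89%). These shares of all genes tested are the background for the list counts below. P-values cover the spread of these class differences over 3 mice and not the making of the classes. Without mouse 3, which held most cells, 1252 and 1953 genes were called.

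The 15 genes with the largest difference from both classes included surface proteins, lipid carriers and a Notch ligand known from endothelium. Levels in the fits are TMM-scaled CPM, in which edgeR adjusts each total for composition. Ptprb, the phosphatase that restrains the TIE2 receptor (chromosome 10, 116275523 to 116389535, GRCm38), measured 855, 921 and 882 TMM-scaled CPM in endothelial cells and 0 UMIs in either other class. Against a floor of 3 UMIs over the group, it was at least 275-fold higher than in mural cells and at least 344-fold higher than in macrophages (adjusted p 7.2e-15 and 1.3e-15). Rbp7, a retinol-binding protein (chromosome 4, 149449687 to 149454978), measured 1324, 2622 and 1889 and was at least 603-fold higher than in mural cells. Mouse 2 was highest and mouse 1 lowest for Rbp7, and no value of another class came near them.

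Podxl, a sialomucin of the luminal surface, measured 498, 498 and 443 TMM-scaled CPM and was at least 145-fold and 182-fold higher than in mural cells and macrophages. Car4, a membrane carbonic anhydrase known from capillaries, measured 233, 269 and 320. Gpihbp1, which carries lipoprotein lipase across capillary endothelium (chromosome 15, 75596628 to 75599481), measured 446, 632 and 511 with 1 UMI in all mural cells and 1 in all macrophages. Ly6c1, a surface protein, measured 1912, 1887 and 2301 with at most 10.5 in any other sum. All 4 were present in every mouse at levels far above the other classes. The remaining named genes were Cyyr1, Btnl9, Exoc3l2, Dll4, Adgrl4, Aplnr, Ccdc85a, Unc45b and Arhgef15. DESeq2 did not call 8 of the 15 against mural cells (Podxl, Cyyr1, Btnl9, Car4, Exoc3l2, Dll4, Aplnr and Ccdc85a), with adjusted p of 0.067 to 0.20. Against macrophages it did not call 6 of these (Btnl9, Car4, Exoc3l2, Dll4, Aplnr and Ccdc85a), with adjusted p of 0.054 to 0.12.

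**Figure D2:**
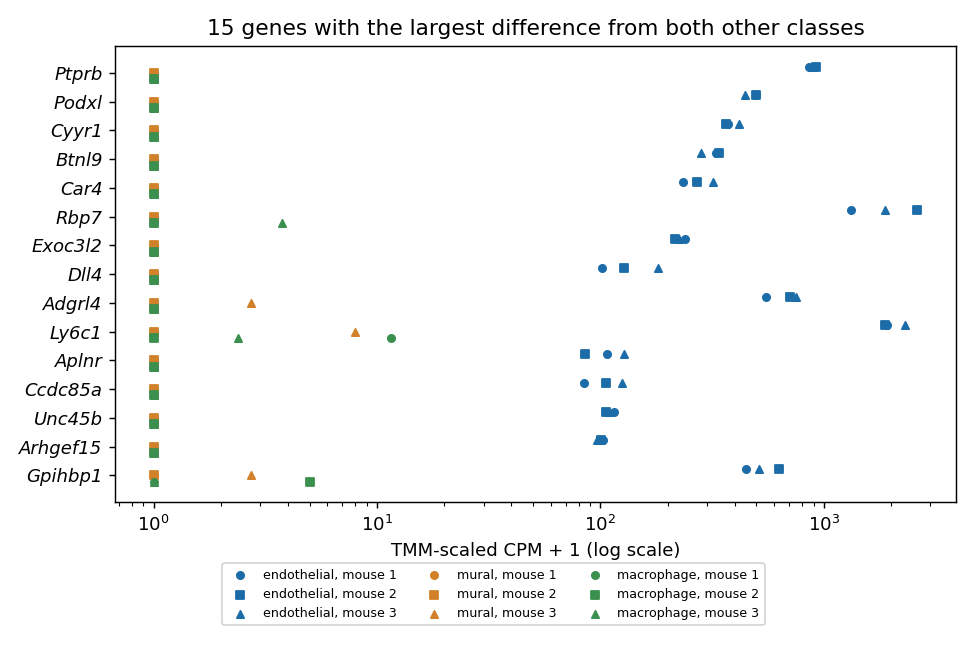
TMM-scaled CPM plus 1 (horizontal axis, log scale) of the 15 genes with the largest difference from both other classes (vertical axis), 1 point per mouse and class. Endothelial points lie near 100 CPM or above it in every mouse, and points of mural cells and macrophages lie at or near 0, which is plotted at 1.

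Lower in endothelial cells than in both classes were Slc11a1, Abca9, Arhgap15, Dock10 and Adap2os, the 5 with the largest differences. Slc11a1, a metal transporter known from phagocytes, had 1 endothelial UMI, while its level was 92.8, 71.7 and 66.3 TMM-scaled CPM in mural cells and 148, 152 and 147 in macrophages. Arhgap15, a Rac GTPase-activating protein, had 0 endothelial UMIs and was at least 19.0-fold lower than in mural cells and at least 78.0-fold lower than in macrophages.

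Of the VEGF receptors outside the rule, Flt4, Nrp1 and Nrp2 were higher than in both classes. Of 7 tested genes of the VEGF list, 4 were higher and 2 lower than in mural cells, and 4 were higher and 1 lower than in macrophages. Nrp1, a VEGF co-receptor, measured 1205, 1275 and 1293 TMM-scaled CPM and was 2.11 ± 0.23 (SE) higher on the log2 scale than in mural cells (adjusted p = 9.1e-09). Flt4 measured 106, 87.7 and 128 with 0 UMIs in mural cells and macrophages, at least 35.1-fold and 44.0-fold higher, though DESeq2 called neither difference (adjusted p 0.19 and 0.12). The list medians were 1.94 and 2.39 on the log2 scale, against 0.04 and 0.04 over all genes tested.

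Among the ligands, Vegfa was found in hormone-rich cells at 165, 177 and 211 unscaled CPM and in endothelial cells at 18.7, 17.2 and 27.8, given without a test since hormone-rich cells entered no fit. Pgf, a ligand of FLT1, measured 3.41, 1.54 and 0 TMM-scaled CPM in endothelial cells against 99.0, 159 and 147 in mural cells, and was lower by 6.65 ± 0.47 (adjusted p = 9.0e-13). Of the ligands tested, Vegfc was higher than in mural cells (32.4, 26.1 and 25.5 against 24.8, 5.12 and 1.74, log2 difference 1.94 ± 0.65, adjusted p = 0.021), a call lost without mouse 2 and with DESeq2. Of 6 angiopoietin and Tie genes, all tested, 3 were higher and 2 lower than in mural cells (median 1.32), and 4 were higher than in macrophages (5.23, or 5.03 with bounds). Angpt1, the TIE2 agonist, had 0 UMIs in endothelial cells and 37.1, 46.1 and 50.6 TMM-scaled CPM in mural cells. Its receptor Tek measured 198, 140 and 157 in endothelial cells and 12.4, 20.5 and 22.7 in mural cells (2.99 ± 0.31, adjusted p = 5.8e-09). Angpt2, the context-dependent TIE2 ligand, measured 29.0, 36.9 and 29.1 against 18.6, 35.8 and 52.3 in mural cells, and the groups overlapped.

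Fenestra and caveola genes other than Plvap were partly shared with mural cells. Of 8 tested, 4 were higher and 2 lower than in mural cells (median 0.54), while 7 were higher and 1 lower than in macrophages (median 7.12). Over all genes tested, 17.1% were higher and 14% lower than in mural cells. Cavin2, a caveolar coat protein, measured 464, 631 and 625 TMM-scaled CPM in endothelial cells and 0 in the mural sums of mice 1 and 2. Cavin1, the coat protein common to caveolae, lay the other way, with 199, 194 and 155 against 446, 363 and 563 (lower by 1.35 ± 0.23, adjusted p = 1.6e-05). Pacsin2, a membrane-bending protein, was lower than in both classes, a call lost without mouse 3.

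Of 13 tested genes of the BMP, ALK1 and TGF-beta list, 9 were higher and 1 lower in either comparison, with medians of 1.81 and 3.59. Eng, the co-receptor endoglin, measured 913, 837 and 994 TMM-scaled CPM against 86.6, 133 and 124 in mural cells and 21.1, 24.1 and 34.4 in macrophages. Acvrl1, the receptor ALK1, measured 274, 308 and 319 and was higher by 2.01 ± 0.24 and 1.57 ± 0.22. Smad6, an inhibitory SMAD, was also higher than in both. The targets Id1 and Id3 did not pass the test against mural cells (log2 differences -0.19 and 0.05) and were higher than in macrophages, whereas Id2 was lower than in both. The Id2 call against mural cells was lost without mouse 1 and after thinning every cell to 2000 UMIs.

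Notch genes lay on both sides of the comparison with mural cells. Of 9 tested, 5 were higher (Dll4, Notch4, Jag2, Hey1 and Notch1) and 2 lower (Jag1 and Hey2) than in mural cells, and 8 were higher than in macrophages. The list medians were 0.996 and 4.69, the second falling to 3.55 with genes of an all-zero group set at their bound. Dll4, a ligand, measured 101, 126 and 179 TMM-scaled CPM with 0 UMIs in mural cells and macrophages. Notch4, a receptor, measured 126, 89.2 and 118 against 6.19, 0 and 3.49 in mural cells. Jag1, another ligand, measured 27.3, 9.23 and 29.1 against 118, 138 and 95.9 (lower by 2.27 ± 0.31, adjusted p = 1.2e-06). Without mouse 3, the calls for Notch1 and Hey2 against mural cells were lost.

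Genes of sprouting tips and angiogenic endothelium, apelin included, gave 6 higher and 1 lower of 8 tested against mural cells (median 3.46) and 7 higher against macrophages (5.24). Aplnr, the apelin receptor, was found in 135 of 402 cells, and its ligand Apln in 30. Cxcr4, a chemokine receptor of tip cells, measured 51.1, 73.8 and 44.7 TMM-scaled CPM and was higher than in mural cells by 3.92 ± 0.54 while its values overlapped those of macrophages (73.8, 56.2 and 48.2). Pdgfb, which recruits pericytes, measured 138, 166 and 143 against 0, 20.5 and 6.98 in mural cells, where the receptor gene Pdgfrb served as a gate marker.

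All 10 tested junction genes were higher than in macrophages, and 8 were higher and 2 lower than in mural cells. Of the 10, 5 had 0 macrophage UMIs, which left little room for another outcome in that comparison. The list medians were 3.56 and 8.33, or 2.42 and 5.87 with bounds. Cdh5 measured 620, 701 and 580 TMM-scaled CPM with 0 mural UMIs, at least 192-fold higher. Esam, an adhesion molecule, measured 775, 828 and 1012 TMM-scaled CPM against 260, 256 and 431 (1.48 ± 0.21). The 2 lower genes were the connexins Gja4 (182, 96.9 and 127 against 439, 425 and 452) and Gjc1 (35.8, 46.1 and 44.0 against 223, 404 and 398).

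Transcription factors known from endothelium followed the same pattern, with 16 of 20 tested higher than in mural cells and 17 of 20 higher than in macrophages. The medians were 3.41 and 2.82, the latter 2.61 with bounds. Sox18 measured 308, 495 and 720 TMM-scaled CPM, lowest in mouse 1 and highest in mouse 3, with at most 3.49 in any mural sum. Sox17, Erg and Gata2 had 0 UMIs in mural cells and macrophages and were at least 27.6-fold, 17.5-fold and 26.4-fold higher than in macrophages. Nr2f2, a factor of veins that mural cells also express, was lower than in mural cells by 5.74 ± 0.39 (23.9, 7.69 and 6.38 against 464, 624 and 685). Lyl1, a blood-lineage factor, was lower than in macrophages.

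The basement membrane list differed strongly from macrophages (15 of 16 higher, median 6.63, or 5.96 with bounds) and less from mural cells (8 higher, 3 lower, median 1.06). Col4a1 measured 2062, 2239 and 1907 TMM-scaled CPM against 1225, 978 and 616 in mural cells, a difference of 1.20 ± 0.22 (adjusted p = 5.5e-05). Hspg2, the proteoglycan perlecan, measured 402, 355 and 381 against 30.9, 30.7 and 27.9. Col15a1 was likewise higher than in mural cells (3.28 ± 0.27), but Col18a1 was lower (3.06 ± 0.31 below, with 18.7, 13.8 and 17.7 against 80.2 to 334). Each of the 3 genes named as higher was so in all 3 mice.

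Of 14 guidance receptors and ligands, all tested, 13 were higher than in mural cells and 1 lower, and 13 were higher than in macrophages. Of the 14, 3 had 0 mural UMIs and 4 had 0 macrophage UMIs, which left these genes little room for another outcome. The medians were 3.14 and 5.40, the latter 4.67 with bounds. Robo4 measured 184, 203 and 239 TMM-scaled CPM with 0 UMIs in mural cells and macrophages, and DESeq2 called neither difference (adjusted p 0.12 and 0.073). Efna1, an ephrin, measured 140, 151 and 172 with at most 3.49 elsewhere. Slit3, a ROBO ligand, was lower than in mural cells (13.6, 6.15 and 2.84 against 55.7, 61.4 and 69.8).

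Vasoactive genes gave 9 of 11 higher in either comparison, with medians of 6.51 and 4.59, the first 4.98 with bounds. S1pr1, the sphingosine-1-phosphate receptor, measured 404, 371 and 321 TMM-scaled CPM with 0 mural UMIs. Ace, the angiotensin-converting enzyme, measured 259, 272 and 289 with 1 mural UMI. Nos3, the endothelial nitric oxide synthase, measured 29.0, 43.1 and 34.8 and was higher than in both classes. Ednrb, an endothelin receptor, did not pass the test against mural cells (232, 235 and 307 against 613, 583 and 724, adjusted p = 0.17). Edn1 was not tested, and its 16 positive cells gave 74.9, 10.3 and 10.4 unscaled CPM, highest in mouse 1.

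Of 9 tested clotting genes, 4 were higher and 2 lower than in mural cells (median -0.33) and 5 higher and 2 lower than in macrophages (1.39). Over all genes tested, 17.1% were higher and 14% lower than in mural cells, and 23.6% higher and 22.4% lower than in macrophages. Thbd, the anticoagulant thrombomodulin, measured 165, 191 and 235 TMM-scaled CPM against 24.8, 15.4 and 15.7 in mural cells. Plat, tissue plasminogen activator, was lower than in mural cells by 0.86 ± 0.23 and higher than in macrophages by 6.30 ± 0.59; DESeq2 did not call the first (adjusted p = 0.075). Of 7 tested leukocyte adhesion genes, 5 were higher and 1 lower than in mural cells (median 2.43), and 4 were higher and 2 lower than in macrophages (6.06). Of the selectins, Sele was found in 1 cell and Selp in 5, while Vwf was found in 8 and Madcam1 in 0. Icam2 measured 363, 357 and 353 and was higher than in both classes. Icam1 (10.2, 21.5 and 48.9) and Vcam1 (10.2, 0 and 1.42) were lower than in macrophages.

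Of 12 tested secreted signals, 8 were higher and 1 lower than in mural cells (median 2.53), and 10 were higher than in macrophages (7.65, or 5.73 with bounds). Igfbp3, a binding protein of insulin-like growth factors, measured 883, 1040 and 1527 TMM-scaled CPM against 12.4, 56.3 and 22.7 in mural cells. Inhbb, a subunit of activins and inhibins, measured 32.4, 102 and 159, lowest in mouse 1, and had 1 mural UMI; DESeq2 did not call it against mural cells (adjusted p = 0.077). Hgf and Wnt9b, known angiocrine signals in other organs, had 0 endothelial UMIs.

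Of 10 tested fatty acid and lipoprotein genes, 4 were higher and 3 lower than in mural cells (median 2.52), and 4 were higher than in macrophages (1.17). Over all genes tested, 17.1% were higher and 14% lower than in mural cells, and 23.6% higher and 22.4% lower than in macrophages. Gpihbp1 was above both, while the enzyme it carries, Lpl, was lower than in mural cells (42.6, 9.23 and 21.3 against 532, 937 and 447, adjusted p = 0.00045) and stood at 482, 348 and 478 unscaled CPM in hormone-rich cells. Scarb1, a lipoprotein receptor, measured 235, 194 and 295 against 6.19, 5.12 and 6.98. Cd36, a fatty acid transporter, measured 1.70, 61.5 and 13.5, and neither comparison passed. Other nutrient transport genes were higher than in mural cells in 4 of 6 tested (median 2.52) and higher than in macrophages in 5 of 6 (1.90). The insulin receptor Insr measured 98.8, 93.8 and 143 and was higher than in mural cells by 1.97 ± 0.31 and than in macrophages by 2.63 ± 0.32. Slc2a1, the glucose transporter known from brain vessels, was found in 16.4%, 7.95% and 9.65% of endothelial cells and in 6.15%, 3.98% and 4.16% of hormone-rich cells. These shares were not taken at equal depth, as hormones made up 51.3%, 58.2% and 47.4% of hormone-rich UMIs. The difference was not tested. Among barrier and sinusoid genes of other organs, Mfsd2a, Stab2, Lyve1, Clec4g and Gata4 had 0 endothelial UMIs, and 4 of 15 genes reached the test. Of these, Clec14a, Car4 and Abcg2 were higher than in both classes, and Stab1, a scavenger receptor, was higher than in mural cells and lower than in macrophages. Not every gene of this list is particular to such vessels, as Car4 is known from capillaries. These calls therefore do not mark a barrier or sinusoid programme in the islet.

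Of 18 tested MHC class I and interferon genes, 15 were higher and 0 lower than in mural cells (median 2.45), against 6 higher and 5 lower than in macrophages (-0.01). Over all genes tested, 17.1% were higher and 14% lower than in mural cells, and 23.6% higher and 22.4% lower than in macrophages. With 18 genes, the macrophage counts were not set apart from these shares. H2-K1 measured 2611, 2067 and 3486 TMM-scaled CPM against 161, 205 and 307 in mural cells (3.58 ± 0.25, adjusted p = 4.4e-13), and its difference from macrophages was 0.31 ± 0.21 (adjusted p = 0.24). B2m was higher than in mural cells by 3.17 ± 0.24. Isg15, an interferon-induced protein, was higher than in mural cells by 1.01 ± 0.25 and lower than in macrophages by 1.73 ± 0.21.

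MHC class II genes were low in the endothelium and came mostly from mouse 3. All 7 tested were lower than in macrophages, and 3 of 7 (H2-Ab1, H2-DMb1 and H2-DMa) were higher than in mural cells. The medians were 4.87 against mural cells, or 3.01 with bounds, and -7.28 against macrophages. The H2-DMb1 and H2-DMa calls were lost without mouse 3 and the H2-Ab1 call without mouse 1. Cd74 measured 68.2, 9.23 and 663 TMM-scaled CPM, far higher in mouse 3 than in the others. In mouse 3, H2-Aa, H2-Ab1, H2-Eb1 and Cd74 together gave 1719 UMIs, of which 83.6% lay in 10 of 259 cells. After leaving out the 9 cells of mouse 3 with any macrophage marker, 521 UMIs were left, and Cd74 was found in 28.4% of the remaining 250 cells. Macrophage genes made up 0.000882%, 0.000330% and 0.0100% of endothelial UMIs, and their part in the result was not tested.

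Of 16 immediate-early and heat shock genes known to respond to dissociation, 1 was higher and 7 lower than in mural cells (median -0.47), and 1 was higher and 11 lower than in macrophages (-1.24). Hspa1a measured 162, 272 and 478 TMM-scaled CPM against 662, 1085 and 1462 in mural cells and 980, 1380 and 1639 in macrophages. Atf3 was lower than in macrophages by 3.77 ± 0.24. Against mural cells, Atf3 and Fos lost their calls without mouse 2, and Fos also without mouse 3.

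Few endothelial cells carried proliferation genes. At least 3 of 18 cell cycle genes were found in 29 of 402 cells (7.21%), with 7.27%, 6.82% and 7.34% in mice 1, 2 and 3. Without thinning, 345 of 4780 hormone-rich cells (7.22%) carried as many. After thinning every cell to 2000 UMIs, the endothelial counts were 1 of 55, 0 of 86 and 6 of 223. Pooled over the mice, this was 7 of 364 (1.92%), resting mostly on mouse 3. Thinned hormone-rich cells gave 34 of 4597 (0.740%), macrophages 6 of 165 (3.64%) and mural cells 0 of 154. The 2000 UMIs include hormones, which made up 51.3%, 58.2% and 47.4% of hormone-rich UMIs at full depth. Hormone-rich cells were therefore not compared at equal depth for other genes, and this difference was not tested. At 3 counts of the total, the mural count allows up to 1.95% of cells with 3 detected. Mki67, a marker of cycling cells, was found in 4 endothelial cells and Top2a, a topoisomerase of dividing cells, in 5.

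**Figure D3:**
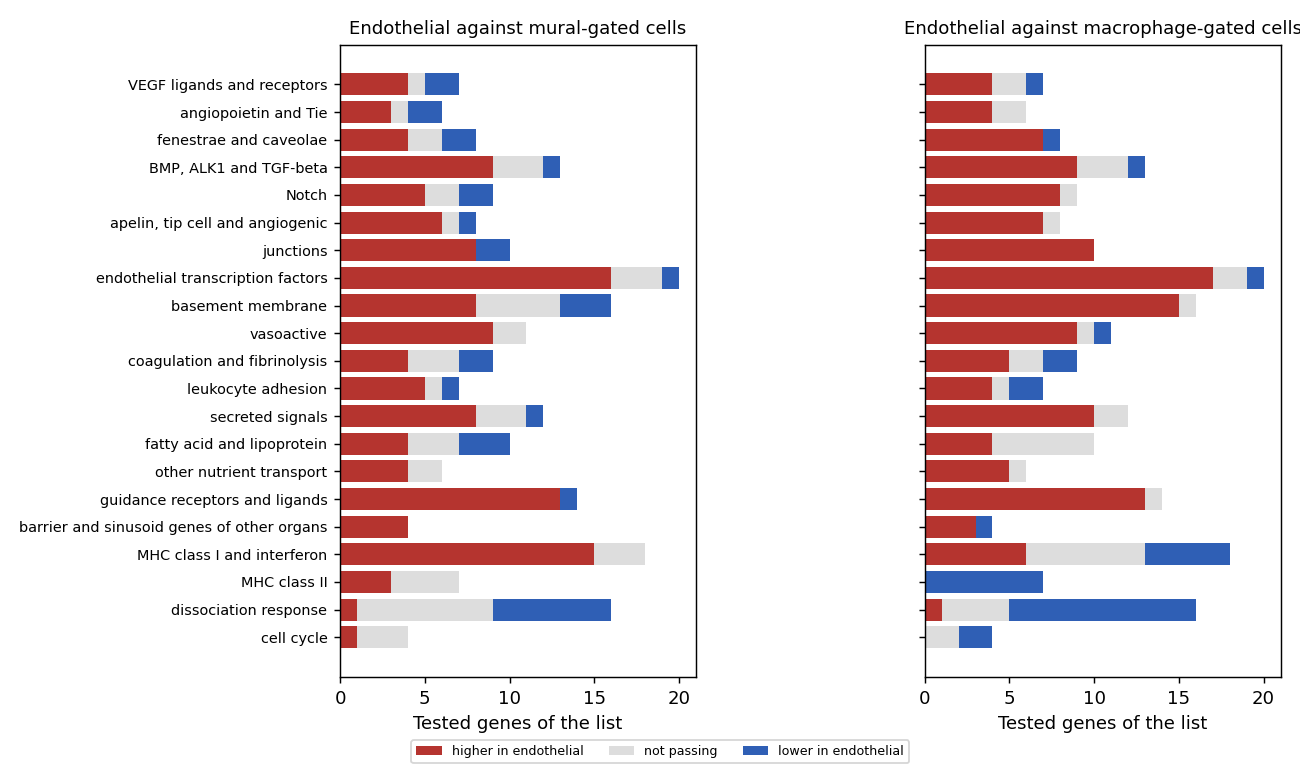
Number of tested genes of each list (horizontal axis) that were higher, lower or not past FDR 0.05 in endothelial cells, against mural cells (left) and macrophages (right). Guidance genes were higher in 13 of 14 in both panels, and MHC class II genes were all lower against macrophages. Of the guidance genes, 3 had 0 mural UMIs and 4 had 0 macrophage UMIs.

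Between mice, most endothelial genes were steady. Of 2880 tested genes with a mean of at least 50 TMM-scaled CPM, 207 (7.19%) differed by more than 2-fold between the highest and the lowest mouse, and the median ratio was 1.30. Fabp4, a fatty acid binding protein, was among the more variable ones, at 849 and 888 in mice 1 and 3 and 1841 in mouse 2. Aqp1, a water channel, measured 297, 67.7 and 173.

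Vessel subtypes were read from 8 arterial and 7 venous markers. A cell with at least 2 markers of a row, and more of it than of the other, was arterial-gated or venous-gated; these gates are ranges of a marker count and not cell types. Arterial-gated cells made up 54.5%, 43.2% and 30.9% of endothelial cells (30, 38 and 80), a mean of 42.9% ± 11.8 (SD, n = 3), and venous-gated cells 9.09%, 9.09% and 9.65% (5, 8 and 25). The arterial share was highest in mouse 1, the mouse with the deepest endothelial cells. Arterial-gated cells were also deeper than the remaining cells, with medians of 10555.5, 6996.5 and 5123 UMIs against 7912, 4471 and 3951.5. Thinned to 2000 UMIs, the arterial share was 14.5%, 17.4% and 16.6% (16.2% ± 1.49) and the venous share 5.45%, 3.49% and 4.93%, over 55, 86 and 223 cells deep enough. The order of the mice in the arterial share was thus not kept at equal depth.

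**Figure D4:**
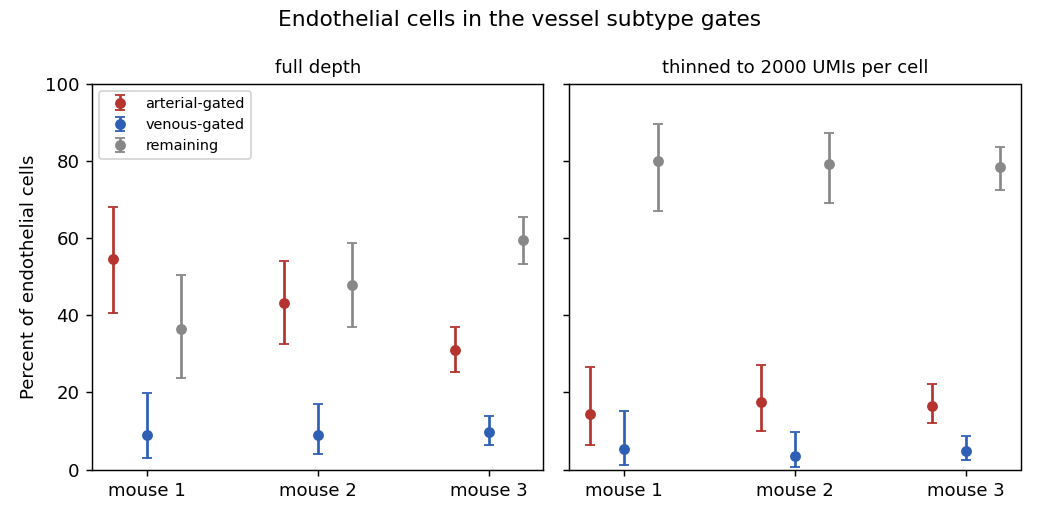
Percent of endothelial cells in each subtype gate (vertical axis) by mouse (horizontal axis), at full depth (left) and after thinning to 2000 UMIs per cell (right), with exact 95% binomial intervals. The arterial share runs from 30.9% to 54.5% at full depth and from 14.5% to 17.4% after thinning.

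The arterial gate rested on several genes and the venous gate on few. Among arterial-gated cells, 81.8% carried Efnb2, an ephrin of arteries, 69.6% Gja4, 50% Sema3g and 38.5% Hey1. Gja5, the connexin of larger arteries, was found in 4 of 402 endothelial cells. Every venous-gated cell carried Fbln2, an extracellular matrix protein, and 78.9% carried Ephb4, the receptor of Efnb2. Classical markers of veins and venules were rare in the 402 cells: Nr2f2 was found in 13, Vwf in 8, Selp in 5, Vcam1 in 4 and Ackr1 in 3. With at least 3 markers required, the shares were 23.8% and 2.61%.

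The rule genes themselves differed between the gates, again as a description. Plvap was found in 98.6% of arterial-gated, 100% of venous-gated and 99.5% of the remaining cells. Esm1 was found in 87.2%, 31.6% and 79.6%. Its level in venous-gated cells was 0, 289 and 279 TMM-scaled CPM, against 2174, 3252 and 2102 in the remaining cells, so that the groups did not overlap in any mouse.

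Of 3974 genes tested within the endothelium, 57 (1.43%) differed between arterial-gated and remaining cells, with 38 higher (0.956%) and 19 lower (0.478%). The count was 9 without the replicate block for the mouse, 34 without mouse 1 and 6 without mouse 3. Tgfb2, a transforming growth factor (chromosome 1, 186622792 to 186705989), measured 82.9, 95.3 and 87.7 TMM-scaled CPM in arterial-gated cells and 7.88, 11.2 and 6.56 in the remaining cells, a log2 difference of 3.43 ± 0.49 (adjusted p = 1.5e-05). It had 0 UMIs in venous-gated cells. Glul, glutamine synthetase, measured 245, 251 and 344 against 55.1, 61.4 and 37.7 (2.66 ± 0.26, adjusted p = 1.9e-09). The Glul call held in all 14 alternative settings that gave it a value, whereas Tgfb2 lost its call without mouse 3.

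Other genes higher in arterial-gated cells were Serpina1b, Atp13a3, Npnt, Ssu2, Dkk2, Azin1, Pcp4l1 and St8sia6. Dkk2, a Wnt modulator, measured 127, 134 and 57.0 TMM-scaled CPM against 39.4, 33.5 and 9.84. From the lists, the arterial factor Sox17 (102, 134 and 151 against 47.3, 33.5 and 34.4, log2 difference 1.93 ± 0.30), the flow-responsive factor Klf2 (0.69 ± 0.17), Bmp6, Smad6, Ace, Cxcl12, Plat, Slc6a6 and Vegfc were higher. Lower were Aplnr, Lhfpl2, Fabp5, Cyp26b1, Chek2, Nectin2, Maf, Trp53i11, Fam167b and Cmtm3, and from the lists Scarb1. Aplnr measured 70.1, 56.5 and 30.7 in arterial-gated cells against 252, 106 and 185 (lower by 1.83 ± 0.29, adjusted p = 0.00026). Arterial-gated values lay below those of the remaining cells in every mouse. Without mouse 3, 24 of the 30 named and listed genes lost their call. Klf2, Cxcl12, Plat, Scarb1, Lhfpl2, Chek2, Maf and Cmtm3 lost it whichever mouse was left out, and also with DESeq2.

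Between venous-gated and remaining cells 72 genes differed (1.81%), 32 higher (0.805%) and 40 lower (1.01%). The balance of the split depended on the setting: 25 higher and 52 lower with upper-quartile scaling, 23 and 12 with DESeq2, and 18 and 15, 11 and 4, and 19 and 6 without mice 1, 2 and 3. The count was 7 without the replicate block, and 33, 15 and 25 without mice 1, 2 and 3, the venous sums resting on 5, 8 and 25 cells. Both subtype comparisons share the remaining cells. Slco2a1, a prostaglandin transporter (chromosome 9, 102988712 to 103096002), measured 785, 654 and 288 TMM-scaled CPM in venous-gated cells against 39.4, 61.4 and 39.4, a log2 difference of 3.40 ± 0.29 (adjusted p = 1.1e-10), and in arterial-gated cells it measured 82.9, 95.3 and 92.0. Lrg1, a glycoprotein of inflamed vessels, measured 1149, 198 and 304 against 110, 0 and 18.0. Cysltr1, a leukotriene receptor, measured 925, 319 and 161 against 39.4, 39.0 and 44.3 (2.90 ± 0.39). Mouse 1 was highest for these 3 genes, and its venous sum rests on 5 cells.

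Vegfc was higher than in the remaining cells in both gates. It measured 84.1, 106 and 118 TMM-scaled CPM in venous-gated cells and 51.0, 35.3 and 41.6 in arterial-gated cells, and it had 3 UMIs in all remaining cells. The ratio to the remaining cells was 33.4 (counting interval 10.1 to 173) and 13.0 (4.19 to 65.6), with adjusted p of 0.00015 and 0.0052. The arterial call was lost without mouse 3. Whether the gates differ from each other was not tested.

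Further genes higher in venous-gated cells were Thsd7a, Tgfbr3, Il6st, Lepr, Jam2 and Cd14. Jam2, a junctional adhesion molecule, measured 757, 456 and 398 TMM-scaled CPM against 123 to 167 in the remaining cells (1.71 ± 0.24, adjusted p = 1.3e-05). The leptin receptor gene Lepr measured 392, 76.0 and 178 against 47.3, 61.4 and 54.1, with mouse 2 closest to the remaining cells. From the lists, Tek, Ptprb, Ptgs1, Abcg2, Scarb1, Fli1, Ier3 and Nr4a1 were also higher. Scarb1 was thus lower in arterial-gated and higher in venous-gated cells than in the remaining cells (182, 166 and 226, then 841, 532 and 753, against 402, 245 and 367).

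Lower in venous-gated cells were Cxcr4, Rflna, Chek2, Ptp4a3, Tsc22d4, Scg5, Mcam, Dcbld1, Higd1a and Kctd12b, and from the lists Nrp1, Hes1, Lamb1, Ednrb and Gpihbp1. Cxcr4 had 1 UMI in all venous-gated cells and 63 in the remaining cells, a ratio of 15.1 (counting interval 2.61 to 606). Kctd12b, a potassium channel tetramerisation domain gene, measured 84.1, 183 and 262 TMM-scaled CPM against 528, 552 and 605 (lower by 1.54 ± 0.25, adjusted p = 0.00013). Gpihbp1 measured 112, 472 and 474 against 559, 954 and 723. Calls for Slco2a1, Jam2, Kctd12b and Vegfc held in every alternative that gave them a value, and most of the others were lost when 1 mouse was left out.

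**Figure D5:**
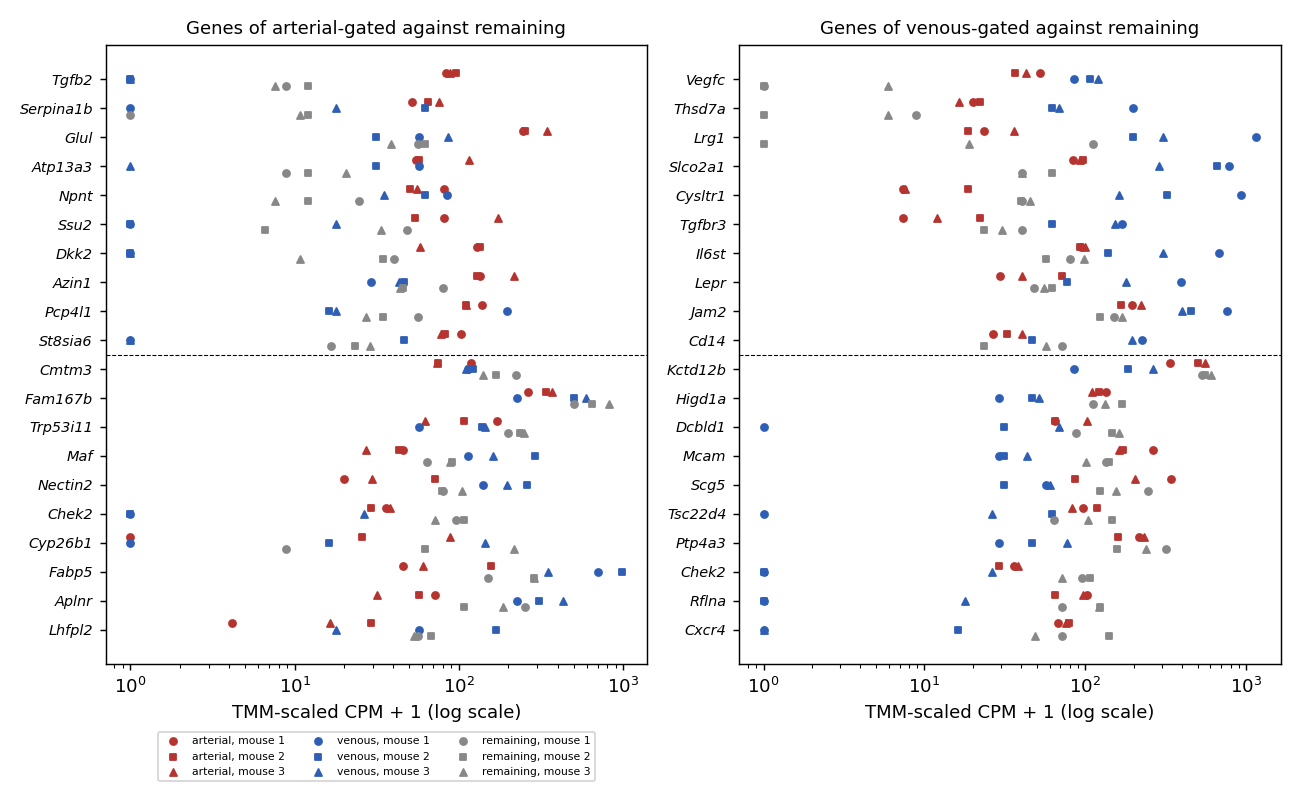
TMM-scaled CPM plus 1 (horizontal axis, log scale) of the 10 highest and 10 lowest named genes of the arterial-gated (left) and venous-gated (right) comparisons (vertical axis, split by the dashed line), 1 point per mouse and subtype. Slco2a1 lies at 288 or above in venous-gated cells and at 61.4 or below in the remaining cells.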

How the data were processed

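Droplet-based 3′ single-cell RNA libraries of the islets of 3 NOD-SCID mice were read from the gene-by-barcode matrices of UMI counts that the authors deposited. Per the submitters' processing notes, Cell Ranger 2.2 and mm10 were used, while the matrix header gives software 3.1.0. The annotation release is not given in the sources used here, and 31011 of 31053 gene identifiers were in GENCODE M21, which gave positions. The members and gene lists were chosen with earlier results of these data known.

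Raw UMI counts were summed per mouse and class, and sums were tested with edgeR 4.0.16 (R 4.3.3; filterByExpr, TMM scaling, robust quasi-likelihood fit, mouse as block, Benjamini-Hochberg FDR 0.05 over all genes tested), with DESeq2 1.42.0 as an alternative. Intervals are exact at 95% and, like the floor of 3 counts, cover counting error only. Sums of the same mouse deviated together, with r of 0.102 to 0.430 against -0.293 to 0.0561 between mice, over 3931 genes. For subtypes r was 0.180 to 0.679 against -0.479 to 0.190, over 2175 genes. Each mouse gave 1 library, so animal and library cannot be told apart here. Genes named are the 15 highest and 5 lowest against both classes, the 10 largest in each direction per subtype gate, and list members by smallest p; other named genes were chosen after their values were seen. Doublets were not called. Double cells were marked by at least 4 mural or macrophage markers, or by at least 3 fibroblast, Schwann, duct or acinar markers. They were removed only in an alternative. On simulated counts, the fit recovered 86.0% of 4-fold and 19.6% of 2-fold changes against mural cells (7144 genes), and 92.8% and 34.4% in the arterial comparison (3994 genes). Other alternatives were normalization, the count filter, cell filters, thinning to 2000 UMIs, removing shared barcodes, and leaving out each mouse.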

Additional observations from a re-analysis of the deposited data

How the results depend on the processing

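No difference of a gene followed under the alternatives changed sign. Followed were the genes named by rule and, per list and direction, up to 5 called genes with the smallest p. These were 125 genes against mural cells, 122 against macrophages, and 30 and 33 for the arterial and venous gates. Listed genes that did not pass were followed only where also named by rule. Against mural cells 2215 genes were called in the full comparison, 1252 to 2464 with 1 mouse left out and 796 after thinning, where 2207 genes were tested. Against macrophages the counts were 3273, 1953 to 3489 and 1121. Of the counts with 1 mouse left out, the lowest was without mouse 3 in both comparisons. Arterial-gated cells gave 57 calls, 17 with DESeq2, 99 with no filter on low counts, 9 without the replicate block, 32 after thinning and 6 to 48 with 1 mouse left out. Venous-gated cells gave 72 calls, 35 with DESeq2, 113 with no filter, 7 without the replicate block and 15 to 33 with 1 mouse left out; the thinned comparison was not run because too few cells were left. The venous split of 32 higher and 40 lower became 25 and 52 with upper-quartile scaling, 23 and 12 with DESeq2, 31 and 82 with no filter, and 18 and 15, 11 and 4, and 19 and 6 without mice 1, 2 and 3, so which direction held more genes changed. Without the replicate block the splits were 8 and 1 (arterial) and 4 and 3 (venous). The cause of these differences was not tested, other than the smaller number of genes tested after thinning. Per gene, 1636 of 1701 values kept their call against mural cells and 1750 of 1787 against macrophages, against 292 of 394 and 309 of 420 for the arterial and venous gates. The endothelial share fell to 0.428% when possible double cells were removed, a rule that acinar RNA in nearly all members triggers. The arterial share was 16.2% after thinning and 23.8% with at least 3 markers, and the venous share 4.63% and 2.61%. The venous share was 9.67% when double cells were removed without counting acinar markers, an alternative chosen after seeing the data. A hormone limit of 5% was not run for the mural and subtype comparisons, nor were fits with all double cells removed. Depth and cell number limit the subtype results, with 5 cells in the venous sum of mouse 1.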
